A study of Brassica rapa subsp. pekinensis with 8 samples.

Results

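CONSTANS (CO) and its CONSTANS-like (COL) relatives were followed in shoots of Chinese cabbage (Brassica rapa) as 10 genes among the 38008 in the deposited table. They are the rows that the deposited annotation assigns to 5 Arabidopsis loci. AT5G15840 (CO) was matched by 1 gene, AT5G15850 (COL1) by 2, AT3G02380 (COL2) by 2, AT5G57660 (COL5) by 2 and AT3G07650 (COL9) by 3. This rule used no measured value, but the loci were chosen with earlier results of these data known. RNA was compared in 4 groups, formed by 2 inbred lines and 2 days. The early-bolting line 4004 gave 1 library at day 35 of vernalization, the long cold exposure of seedlings that readies them to flower, and 1 library at day 0, without it. The late-bolting line 50 gave 3 libraries at day 35 and 3 at day 0. Each library came from the pooled shoots of several plants, which the sample labels call leaf. Days were also shorter in the cold room than in the warm room, and warm-kept plants of equal age are not named for the RNA. Cold, day length and age therefore cannot be told apart at day 35. Replicates 1 and 2 of line 4004 are not analysed here, and both of its libraries carry the number 3.

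CO is the transcription factor through which Arabidopsis reads day length. Its RNA follows the circadian clock, its protein is stabilised by light at the end of long days, and it then switches on FT, the mobile flowering signal, in the companion cells of the leaf phloem. CO and COL proteins share zinc-binding B-boxes near the start and a CCT domain near the end, which contacts DNA together with NF-Y subunits. In Arabidopsis, COL1 and COL2 are the nearest relatives of CO, COL5 is linked to flowering in short days, and COL9 delays flowering by lowering CO and FT. Because these RNAs cycle within the day, a level at 1 time point can move with the phase of the cycle as well as with its height. Shoots were sampled at the same point of the light and dark cycle, according to the study's methods, and phase was not measured.

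The deposited domain annotation gave a CCT domain to all 10 genes and a B-box to 6. The 4 without an annotated B-box were Bra001043 (COL2), Bra002709 (COL5), Bra029666 and Bra040020 (both COL9). Among all genes, 65 had a CCT domain, 42 had a B-box and 20 had both. The CO gene Bra008669 and the COL1 gene Bra008668 carry consecutive identifiers, as CO and COL1 do in Arabidopsis. The study designed PCR primers for 2 of the genes, which fix which copy its names refer to. They are shown 5′ to 3′ in lower case, with BrCOL1-2 standing for the COL1 gene Bra008668 and BrCOL9 for the COL9 gene Bra001264.
BrCOL1-2 forward: ttgcttcccgccagcaacgtgtta
BrCOL1-2 reverse: tctgcctctgtcgtctcactcgaa
BrCOL9 forward: taagaaagatgaaaccagttctgc
BrCOL9 reverse: ggttactgactgtgatgtttgg

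Levels are given as normalized read counts, the authors' read counts divided by 1 scaling factor per library. They are not divided by gene length, so they are compared between samples and not between genes. Library totals were 18.3 M to 27.1 M counts. Replicate 3 of line 50 stood apart from replicates 1 and 2 on both days. Its 10 most abundant genes took 15% of the counts at day 35 and 12.8% at day 0, against 6.65% to 8.56% in replicates 1 and 2, and its rank correlation with them was 0.934 to 0.951, against 0.989 to 0.993 between replicates 1 and 2. Results are therefore also given without it. Replicates 1 and 2 still differed beyond sampling noise, with a mean chi-square per gene of 7.72 at day 35 and 18.3 at day 0. In RNA from whole shoots, fewer cells of a type and less RNA per cell cannot be told apart.

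After vernalization in line 50, all 10 genes had higher normalized read counts in each day 35 library than in any day 0 library. For CO this depended on the scaling, as given below. By the edgeR test, 6 of 10 rose, none fell and 4 were not called. Those that rose were both copies of COL1, COL5 Bra002709 and the 3 copies of COL9. A gene was called at an adjusted p under 0.05 and a log2 fold change of at least 1 in either direction. By that rule 3.92% of all 31191 genes tested were called, 2.23% of them higher. Complete separation of the 3 libraries of each day, with day 35 higher, was seen for 12.4% of all genes. The median log2 fold change of the 10 genes was 2.46, against 0.01 for all genes tested.

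**Figure D1:**
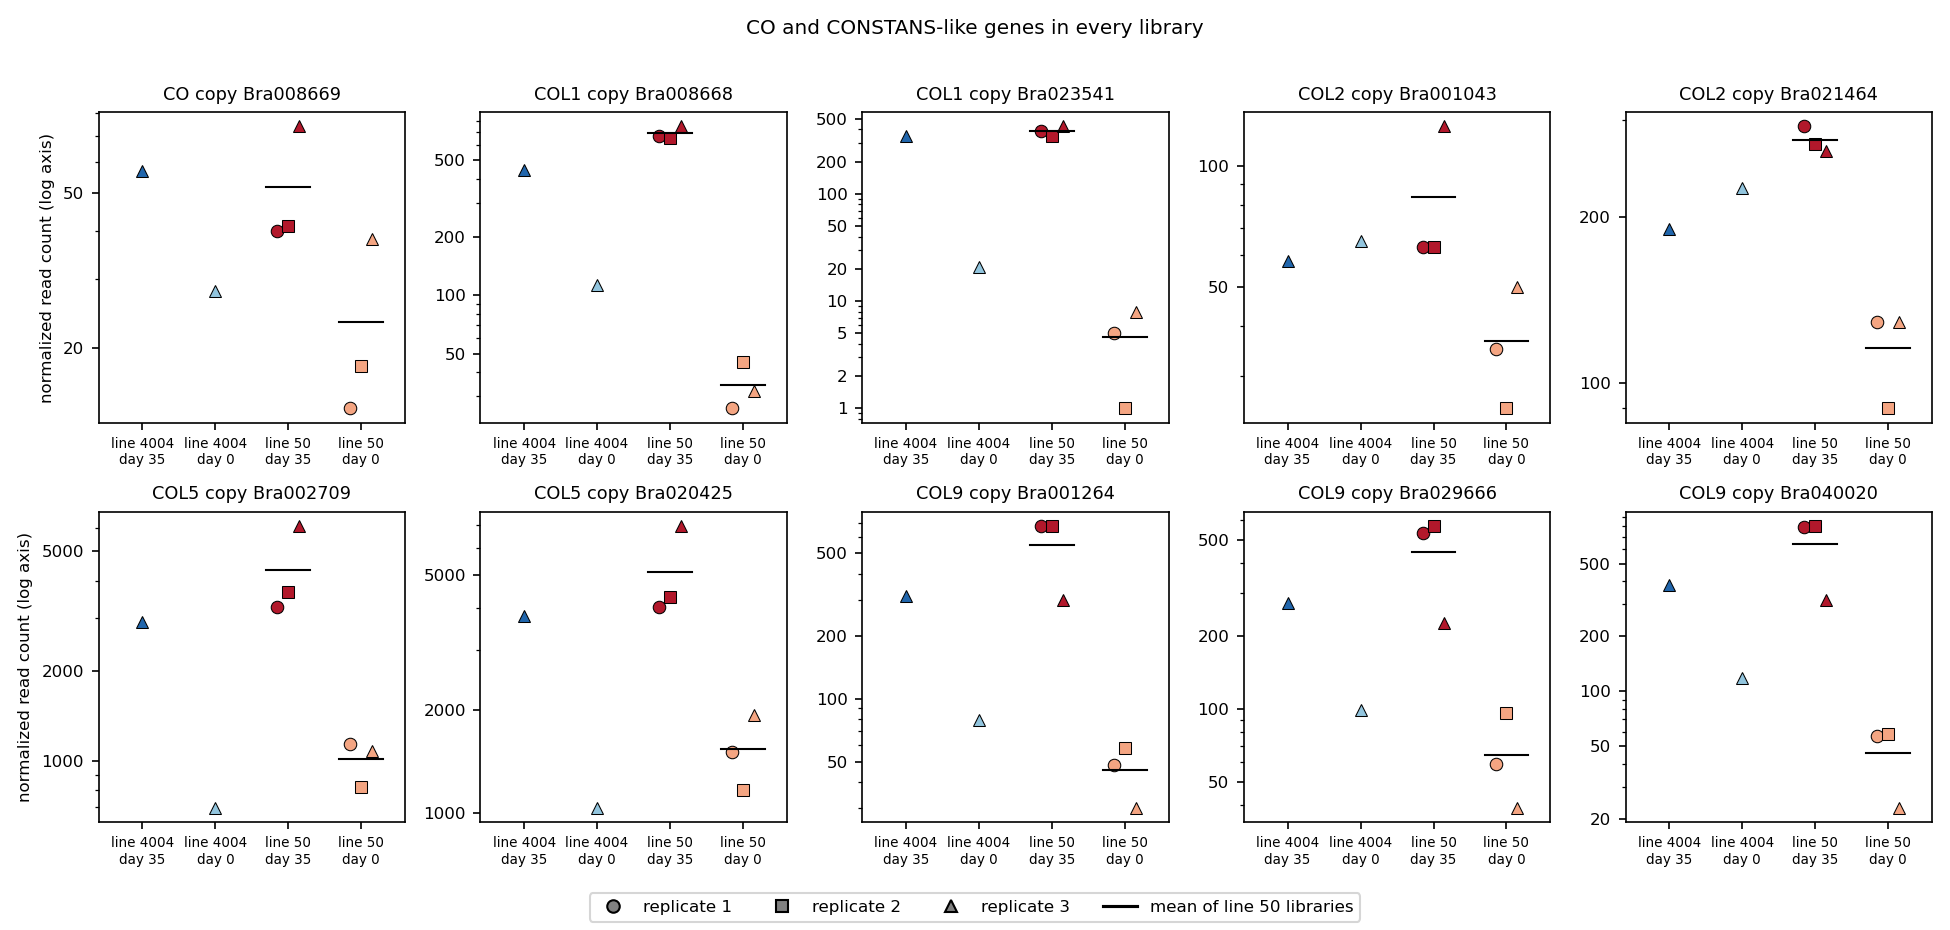
Normalized read counts (log axes, a separate scale per gene) of the 10 genes in every library, by line and day; circles, squares and triangles mark replicates 1, 2 and 3, and bars are means of the 3 line 50 libraries. In each panel the line 50 libraries of day 35 lie above those of day 0, while both COL2 genes are lower at day 35 than at day 0 in line 4004.

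The change of CO itself was the least certain of the 10, with the highest adjusted p. In line 50, Bra008669 (CO) had 40, 41 and 74 normalized read counts at day 35 in replicates 1, 2 and 3, against 14, 18 and 38 at day 0. Replicate 3 was the highest library on both days, at 1.83 times the mean of replicates 1 and 2 at day 35 and 2.38 times at day 0. The lowest day 35 library and the highest day 0 library thus lay close together, at 40 and 38. On log2 CPM, counts scaled by library total and edgeR's TMM factor, the days overlapped for CO. Day 0 replicate 3 was at 0.851, above day 35 replicates 1 and 2 at 0.765 and 0.802. The log2 fold change was 1.16 ± 0.54 (SE, n = 3 libraries per day; 95% interval -0.12 to 2.44), with an adjusted p of 0.293, and the gene was not called. With replicate number as a block it was 1.21 ± 0.24 with an adjusted p of 0.0199, and called. Within pairs of the same number the day 35 library was 2.86, 2.28 and 1.95 times the day 0 library.

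Both COL1 genes, the nearest relatives of CO, had the largest changes of the 10. Bra008668 had 664, 652 and 747 normalized read counts at day 35 in line 50, against 26, 45 and 32 at day 0. The day 35 libraries differed little among themselves, and the groups lay far apart, with a log2 fold change of 4.34 ± 0.32 and an adjusted p of 0.0038. Bra023541 had 387, 347 and 425 at day 35, against 5, 1 and 8 at day 0. Its day 0 level rests on 9 reads over the 3 libraries, so its fold is known only roughly. Summed over libraries and scaled by their factors, its day 35 reads were 116 times its day 0 reads, with a counting interval of 60.6 to 253 times that leaves out the spread between libraries, and its log2 fold change was 6.39 ± 0.52 with an adjusted p of 0.0045. The sum of both copies does not depend on how reads were shared between them. That sum was 1051, 999 and 1172 at day 35, against 31, 46 and 40 at day 0.

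The COL2 genes moved less. Bra021464 had 292, 271 and 264 normalized read counts at day 35, against 129, 90 and 129 at day 0. Its 6 libraries were tightly grouped and separate, with a log2 fold change of 1.25 ± 0.27 and an adjusted p of 0.055, just short of a call. Bra001043 had 63, 63 and 125 at day 35, against 35, 25 and 50 at day 0. Replicate 3 was again the highest on both days, and the log2 fold change was 1.21 ± 0.48 with an adjusted p of 0.219. With the replicate block both COL2 genes were called, at an adjusted p of 0.00868 for Bra021464 and 0.0186 for Bra001043.

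COL5, which in Arabidopsis can promote flowering when overexpressed, had 1 copy that rose and 1 just short of a call. Bra002709 had 3254, 3673 and 6091 normalized read counts at day 35, against 1142, 817 and 1081 at day 0. The day 35 libraries lay well above those of day 0, and the gene rose by a log2 fold change of 2.13 ± 0.37 with an adjusted p of 0.0319. Bra020425 had 4025, 4297 and 6960 at day 35, against 1511, 1172 and 1938 at day 0. Its log2 fold change was 1.75 ± 0.39 with an adjusted p of 0.057, not a call, and it was called with the block at an adjusted p of 0.00427. In both copies replicate 3 was the highest day 35 library, at 1.76 and 1.67 times the mean of replicates 1 and 2.

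The 3 copies of COL9, which in Arabidopsis acts against flowering, all rose. Bra040020 had 795, 806 and 318 normalized read counts at day 35, against 57, 58 and 23 at day 0, a log2 fold change of 3.80 ± 0.48 with an adjusted p of 0.0137. Replicate 3 was the lowest library on both days, and the day 35 library was 13.9, 13.9 and 13.8 times the day 0 library of the same number in replicates 1, 2 and 3. Bra001264 had 679, 675 and 300 at day 35, against 48, 58 and 30 at day 0, a log2 fold change of 3.59 ± 0.39 with an adjusted p of 0.0101. Bra029666 had 531, 570 and 227 at day 35, against 59, 96 and 39 at day 0, a log2 fold change of 2.78 ± 0.45 with an adjusted p of 0.0258. The drop in replicate 3 was shared by the 3 copies. Their replicate 3 levels were 0.397 to 0.443 times the mean of replicates 1 and 2 at day 35 and 0.400 to 0.566 times at day 0. By the same measure, CO, COL1 Bra023541, COL2 Bra001043 and both COL5 genes were above that mean in replicate 3 on both days.

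The count of genes that rose moved with replicate 3. Without it, 10 of 10 were called, beside 10.5% of all genes called higher, and with the replicate block 10 of 10 were called, beside 7.94%. Without replicate 1, and likewise without replicate 2, no gene in the whole table was called by edgeR. Of the 10, 8 and 7 kept an unadjusted p under 0.05, beside 2258 and 2341 of all genes. Leaving out a single day 35 library gave 3 calls for replicate 1, 2 for replicate 2 and 8 for replicate 3, beside 87, 66 and 1708 genes called higher in the whole table. Leaving out a single day 0 library gave 1 call for replicate 1, 2 for replicate 2 and 4 for replicate 3, beside 24, 26 and 591. The count among the 10 thus moved with the count over all genes. All 10 log2 fold changes were positive under each of the 16 alternatives run.

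**Figure D2:**
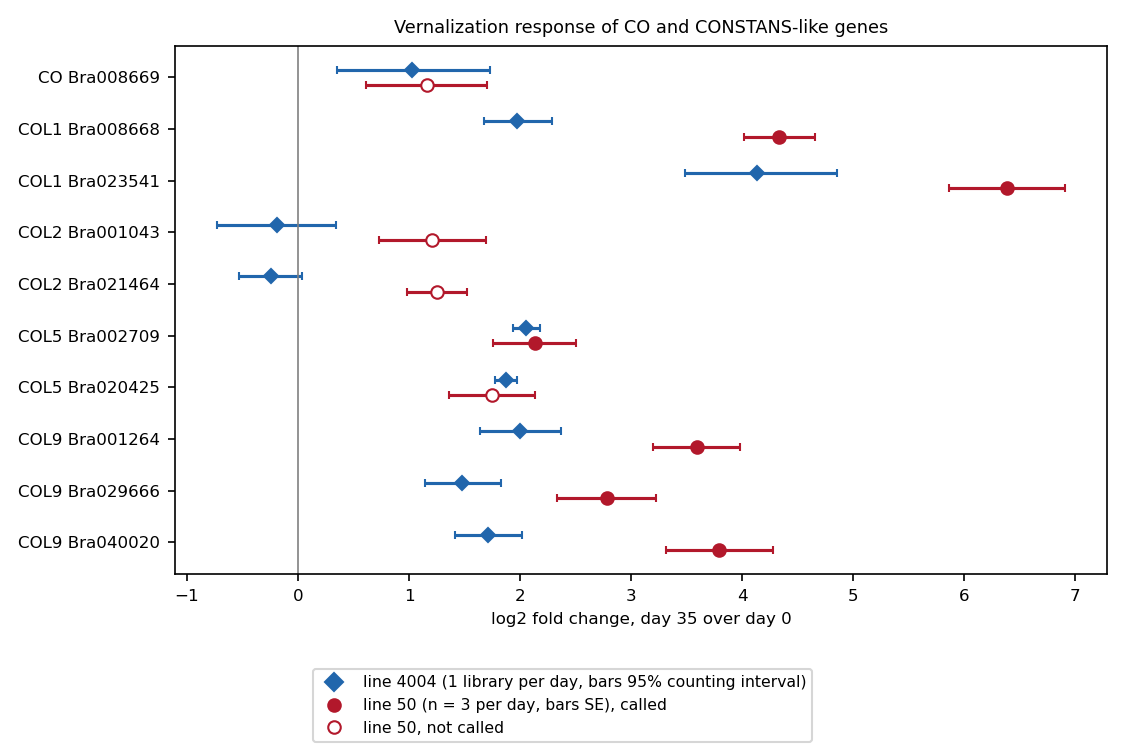
Log2 fold change of day 35 over day 0 for each gene; diamonds are line 4004 (1 library per day, bars 95% counting interval only) and circles line 50 (edgeR, 3 libraries per day, bars SE, filled if called). COL1, COL2 and COL9 lie lower in line 4004 than in line 50, CO and COL5 lie close, and the 2 COL2 diamonds are below 0.

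In line 4004 each day has 1 library, so the change between days has no replicate check. Of the 10 genes, 8 were at least 2-fold higher at day 35 and none was 2-fold lower, beside 8.53% of all genes 2-fold higher and 10.4% lower. The median log2 ratio of the 10 was 1.79, against 0 for all genes. CO had 57 normalized read counts at day 35, against 28 at day 0, a 2.04-fold difference with a 95% counting interval of 1.28 to 3.32. Scaled by library totals in place of the authors' factors, the CO ratio was 1.81 and so under 2-fold. Intervals of this kind cover counting error only. They were computed with 1 taken off each count, so they are not centred exactly on the ratios of normalized read counts.

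COL1 Bra008668 had 445 at day 35, against 113 at day 0 (3.94-fold, 3.20 to 4.88). COL1 Bra023541 had 347, against 21, a 16.5-fold difference and still the largest ratio of the 10. With 1 taken off each count its ratio was 17.5, with an interval of 11.2 to 29.0. COL5 Bra002709 had 2900, against 698 (4.16-fold), and COL5 Bra020425 had 3794, against 1037 (3.66-fold). Both COL5 ratios thus lay near the mean line 50 folds of 4.28 and 3.31. COL9 Bra001264 had 313, against 79 (3.96-fold), COL9 Bra029666 had 274, against 99 (2.77-fold), and COL9 Bra040020 had 384, against 118 (3.25-fold). In line 50 the mean folds of these 3 were 12.2, 6.85 and 13.9. The COL2 genes were the exception. Bra001043 had 58 at day 35, against 65 at day 0 (0.892-fold, 0.605 to 1.27), and Bra021464 had 190, against 226 (0.841-fold, 0.694 to 1.03), and both counting intervals include 1.

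Whether the lines responded to vernalization differently was tested as the difference of the responses, line 4004 minus line 50, with the line 4004 libraries assumed to vary like a line 50 replicate. None of the 10 was called by edgeR. No gene in the table was (0% called), although 956 genes, and 4 of the 10, had an unadjusted p under 0.05. DESeq2 called 66 genes (0.210%) and none of the 10. The difference in log2 fold change was -2.38 ± 0.57 for COL1 Bra008668 (95% interval -3.72 to -1.04), -2.34 ± 0.86 for COL1 Bra023541, -2.10 ± 0.88 for COL9 Bra040020 and -1.51 ± 0.54 for COL2 Bra021464, each at an adjusted p of 0.9999. For the COL5 genes it was -0.09 (95% interval -1.78 to 1.60) in Bra002709 and 0.12 (-1.66 to 1.89) in Bra020425, and for CO -0.17 (-2.65 to 2.31), so differences of a few fold in either direction remain possible for these.

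Without replicate 3 of line 50, 5 of the 10 had a smaller response in line 4004 by edgeR, beside 4.18% of all genes called in that direction. These were COL1 Bra008668 (-2.26, adjusted p = 0.0237), COL1 Bra023541 (-2.72, adjusted p = 0.0356), COL2 Bra021464 (-1.63, adjusted p = 0.0376), COL9 Bra001264 (-1.71, adjusted p = 0.0179) and COL9 Bra040020 (-2.12, adjusted p = 0.0082). That fit takes its spread only from replicates 1 and 2 of line 50, which resemble each other most, and both line 4004 libraries carry the number 3.

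**Figure D3:**
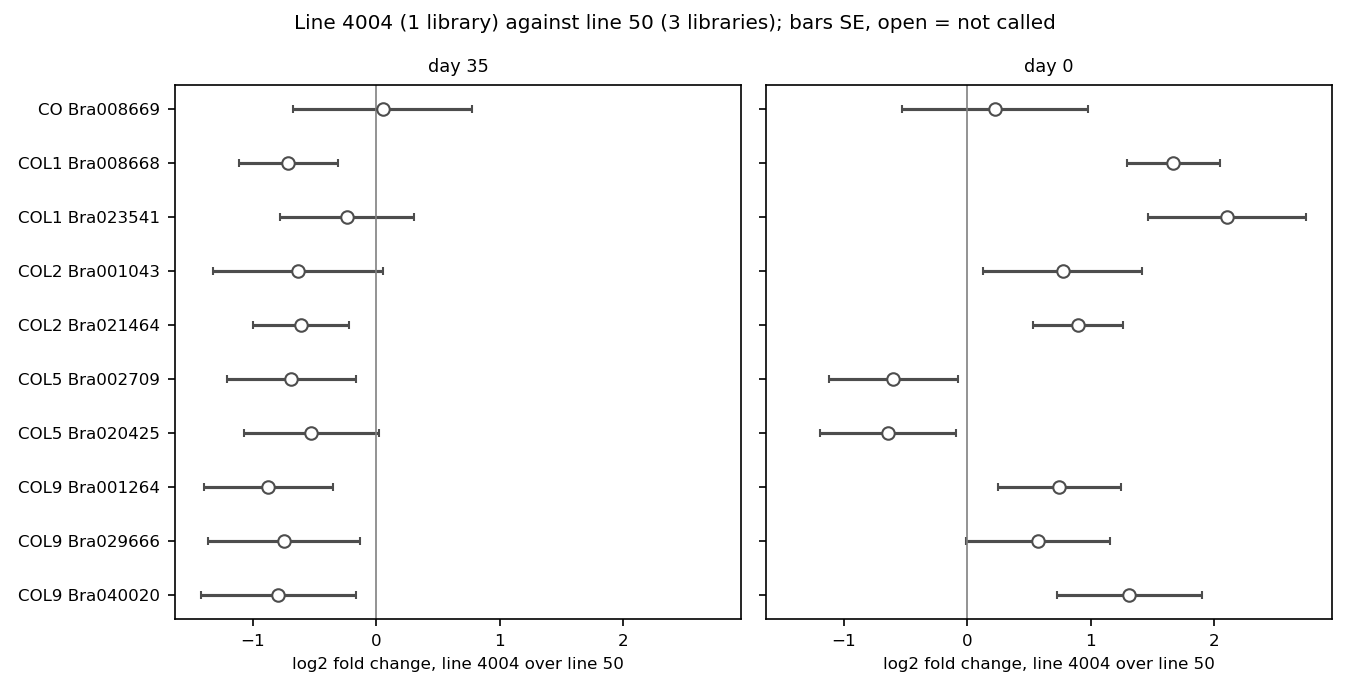
Log2 fold change of line 4004 (1 library) over line 50 (3 libraries) at day 35 and at day 0, with SE from the edgeR fit; open circles mark genes not called. At day 0 the points run from -0.64 to 2.11 and at day 35 from -0.87 to 0.05.

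Set beside line 50 at day 35, line 4004 had none of the 10 called, beside 0.446% of all genes, and none had an unadjusted p under 0.05 or a call by DESeq2. The line 4004 library lay below all 3 line 50 libraries for COL1 Bra008668, both COL2 genes and both COL5 genes, and within their range for the other 5. The share of all genes that lay outside the line 50 range was not counted, so these positions are not read as a line difference. Log2 fold changes ran from -0.87 in COL9 Bra001264 (95% interval -2.10 to 0.36) to 0.05 in CO (-1.66 to 1.77). Without replicate 3 the 3 COL9 genes were called lower in line 4004, at -1.14, -1.03 and -1.09 for Bra001264, Bra029666 and Bra040020, beside 8.75% of all genes called lower. The COL9 levels of line 4004 at day 35, 274 to 384 normalized read counts, each lay just above those of line 50 replicate 3, 227 to 318, and below those of replicates 1 and 2.

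At day 0 none of the 10 was called between the lines either, beside 1.49% of all genes. An unadjusted p under 0.05 was reached by 3, beside 4217 of all 31191 genes. Here the line 4004 library lay above all 3 line 50 libraries for 7 genes, both COL1, both COL2 and the 3 COL9 copies. It lay below them for both COL5 genes and within their range for CO. The share of all genes in such positions was not counted here either, so these positions are not read as a line difference. COL1 Bra008668 had 113 normalized read counts in line 4004, against 26, 45 and 32 in line 50, a log2 fold change of 1.67 ± 0.38 (95% interval 0.78 to 2.56) with an adjusted p of 0.102. COL1 Bra023541 had 21, against 5, 1 and 8, a log2 fold change of 2.11 ± 0.64 with an adjusted p of 0.207. COL2 Bra021464 had 226, against 129, 90 and 129, a log2 fold change of 0.90 ± 0.36 with an adjusted p of 0.346.

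Which COL genes passed the test at day 0 depended on the method. DESeq2 called both COL1 genes higher in line 4004 (adjusted p = 0.0119 for Bra008668 and 0.0441 for Bra023541), beside 3.06% of all genes called higher. The fit with the replicate block called COL9 Bra001264 (1.39, adjusted p = 0.0481) and COL9 Bra040020 (2.21, adjusted p = 0.0179), beside 4.66%. That fit gives line 4004 the replicate 3 offset of the late-bolting line, where replicate 3 was the lowest day 0 library for both genes. Whether line 4004 shares that offset was not tested. Without replicate 3, edgeR called both COL1 genes, both COL2 genes and COL9 Bra040020, beside 14.4%.

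Copies of 1 Arabidopsis locus can be compared within a library, where scaling cancels. In 6 pairs of copies, 4 had log2 count ratios that did not overlap between the days in line 50. With 3 libraries against 3 the smallest two-sided p of the exact permutation test is 0.1, which these 4 reached (adjusted over the 6 pairs, 0.15), so the design cannot pass 0.05. The log2 ratio of COL1 Bra008668 to Bra023541 was 0.78, 0.91 and 0.82 at day 35, against 2.43, 4.62 and 2.0 at day 0. At day 0 reads of the locus thus came mostly from Bra008668, and at day 35 the copies were within 2-fold of each other. In line 4004 this ratio was 0.36 at day 35, against 2.45 at day 0, the day 0 value resting on 21 counts of Bra023541.

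Among the COL9 copies, the log2 ratio of Bra029666 to Bra040020 was -0.58, -0.50 and -0.48 at day 35, against 0.05, 0.72 and 0.78 at day 0. The ratio of Bra001264 to Bra029666 was 0.35, 0.24 and 0.40 at day 35, against -0.29, -0.72 and -0.34 at day 0. Bra029666 was the COL9 copy with the smaller share at day 35 in both pairs. In line 4004 these ratios were -0.48 at day 35, against -0.25 at day 0, for Bra029666 to Bra040020, and 0.19, against -0.32, for Bra001264 to Bra029666. The COL5 ratio of Bra002709 to Bra020425 was higher at day 35 by 0.18 on the log2 scale in line 4004 and by 0.35 in line 50. The other 2 pairs, the COL2 copies and Bra001264 with Bra040020 of COL9, overlapped between the days (exact permutation p = 0.8 and 0.3). The sources used here do not say how reads that matched several copies were counted, so ratios between similar copies are uncertain.

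**Figure D4:**
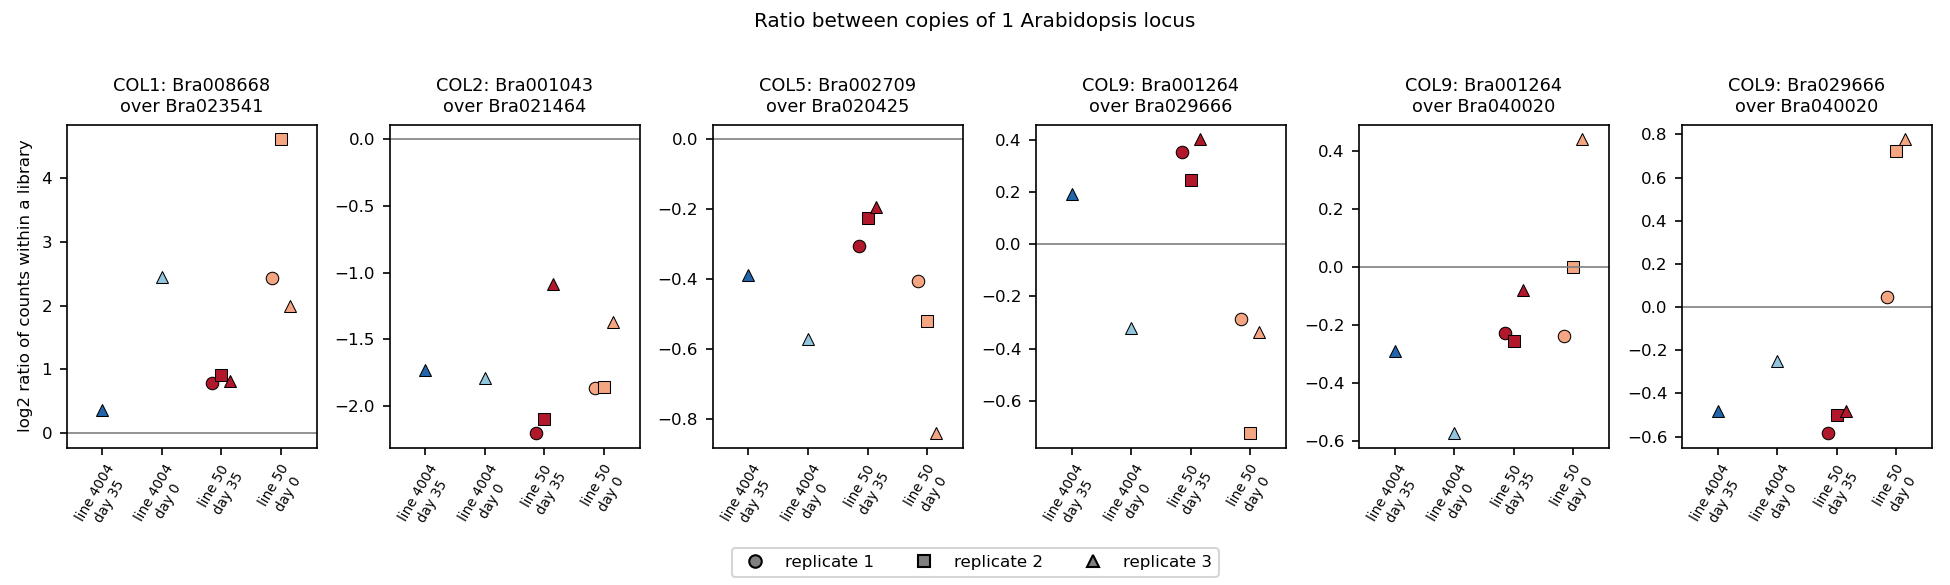
Log2 ratio of the counts of 2 copies of a locus within each library, by line and day; circles, squares and triangles mark replicates 1, 2 and 3. The COL1 ratio lies between 0.36 and 0.91 at day 35 and between 2.0 and 4.62 at day 0.

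Other COL genes were read in the same fit. Of 16 further genes matched to the remaining COL loci, 15 were tested. In line 50, 1 rose at day 35, none fell and 14 were not called, beside 2.23% of all genes called higher. Their median log2 fold change was 0.10, beside the 0.01 of all genes. The gene that rose, COL10 Bra020709, had 536.0 ± 68.1 normalized read counts at day 35, against 182.0 ± 35.1 at day 0 (SD, n = 3), a log2 fold change of 1.58 ± 0.23 with an adjusted p of 0.02. Another COL10 copy, Bra037499, was not called (0.518 ± 0.225, adjusted p = 0.256). COL13 Bra004423, named after its value was seen, had a larger log2 fold change of 1.86 ± 0.42 and was not called (adjusted p = 0.0613). With the replicate block COL13 Bra004423 and COL10 Bra020709 were called higher, beside 7.94% of all genes. Between the lines edgeR called none of the 15, and DESeq2 called 1 on each day. An unadjusted edgeR p under 0.05 was reached by 1 at day 0 and 3 at day 35, beside 4217 and 1987 of all 31191 genes. With the replicate block 3 were called lower in line 4004 at day 0, COL6 Bra033925 (-2.89, adjusted p = 0.0237), COL6 Bra004035 (-2.15, adjusted p = 0.0365) and COL16 Bra024750 (-1.23, adjusted p = 0.0486). Over all genes, the block fit called 908 lower in line 4004 at day 0, and DESeq2 called 1583 at day 0 and 433 at day 35. The block fit gives line 4004 the replicate 3 offset of line 50, and the 3 genes named as lower were highest in that replicate at day 0. The difference between the other COL genes and the 10 was not tested.

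Genes that act upstream of CO were read in line 50. The CO transcription list holds GI, a clock-driven activator of CO, the CDF repressors and the FBH activators. Their median log2 fold change was 0.81. Of these 14 genes, 1 rose and none fell, beside 2.23% of all genes called higher. This was CDF2 Bra025655, at 213.0 ± 61.4 normalized read counts at day 35, against 47.0 ± 16.5 at day 0, a log2 fold change of 2.19 ± 0.42 with an adjusted p of 0.0413. The other CDF2 copy, Bra028437, was not called (1.28 ± 0.31, adjusted p = 0.0746). The replicate block called 4 of the 14 higher, beside 7.94% of all genes. DESeq2 called 5, beside 2948 genes in the whole table. Of 16 genes for the light control of CO protein (photoreceptors, COP1, SPA and HOS1), none was called between days by edgeR, beside 3.92% of all genes. An unadjusted p under 0.05 was reached by 6, beside 6382 of all 31191 genes, and DESeq2 called 1. The replicate block called 4 higher, beside 7.94% of all genes, and the median log2 fold change was 0.34. The cryptochrome gene CRY2 Bra015313 had 2747 normalized read counts in line 4004 at day 35, against 692, 664 and 684 in line 50 (log2 fold change 1.93 ± 0.27, adjusted p = 0.0451). At day 0 it had 2591, against 438, 453 and 463 (2.47 ± 0.27, adjusted p = 0.0121). Another CRY2 copy, Bra030568, was not called on either day (0.468 ± 0.295 at day 35 and 1.034 ± 0.287 at day 0).

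In the clock list, 5 of 19 genes were called higher at day 35 in line 50 and none lower, beside 2.23% of all genes called higher, with a median of 0.68. The replicate block called 8, beside 7.94% of all genes, and DESeq2 also called 8. Call rates were not compared between the lists. The largest changes were in LHY Bra030496 (5.55 ± 0.40) and LHY Bra033291 (5.39 ± 0.40), both morning-phased, and in their relative CCA1 Bra004503 (3.49 ± 0.25), each at an adjusted p of 0.0038. LHY Bra033291 had 1353, 1250 and 831 normalized read counts at day 35, against 26, 39 and 14 at day 0. In line 4004 it had 1459, against 50. CCA1 also was higher in line 4004 at day 0, with 400 against 97, 96 and 116 (1.90 ± 0.30, adjusted p = 0.0368). The part of clock phase in the COL levels was not tested.

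Partners and targets of CO were led by SOC1, a floral integrator. The median log2 fold change of the 15 genes tested was 0.61, and 5 were called higher with the replicate block, beside 7.94% of all genes. Without the block, 3 rose, all SOC1 copies, and none fell, beside 2.23% of all genes called higher. Their log2 fold changes were 5.16 to 5.56, and in line 4004 the 3 copies had 371 to 484 normalized read counts at day 35, against 24 to 37 at day 0. FT Bra022475, the main CO target in Arabidopsis, had 32 normalized read counts in line 4004 at day 35, against 1 at day 0, and its relative TSF Bra004117 had 38, against 1. In line 50 both were at or near the lowest value, with 2, 3 and 3 at day 35, against 2, 1 and 2 at day 0. Between the lines at day 35 FT and TSF were called higher in line 4004 (adjusted p = 0.0455 for FT and 0.0342 for TSF), and neither was called with the replicate block (0.0753 for FT and 0.0676 for TSF) or by DESeq2. Here too the block fit gives line 4004 the replicate 3 offset of line 50. CO, at 57 in line 4004 at day 35, lay inside the 40 to 74 of line 50.

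**Figure D5:**
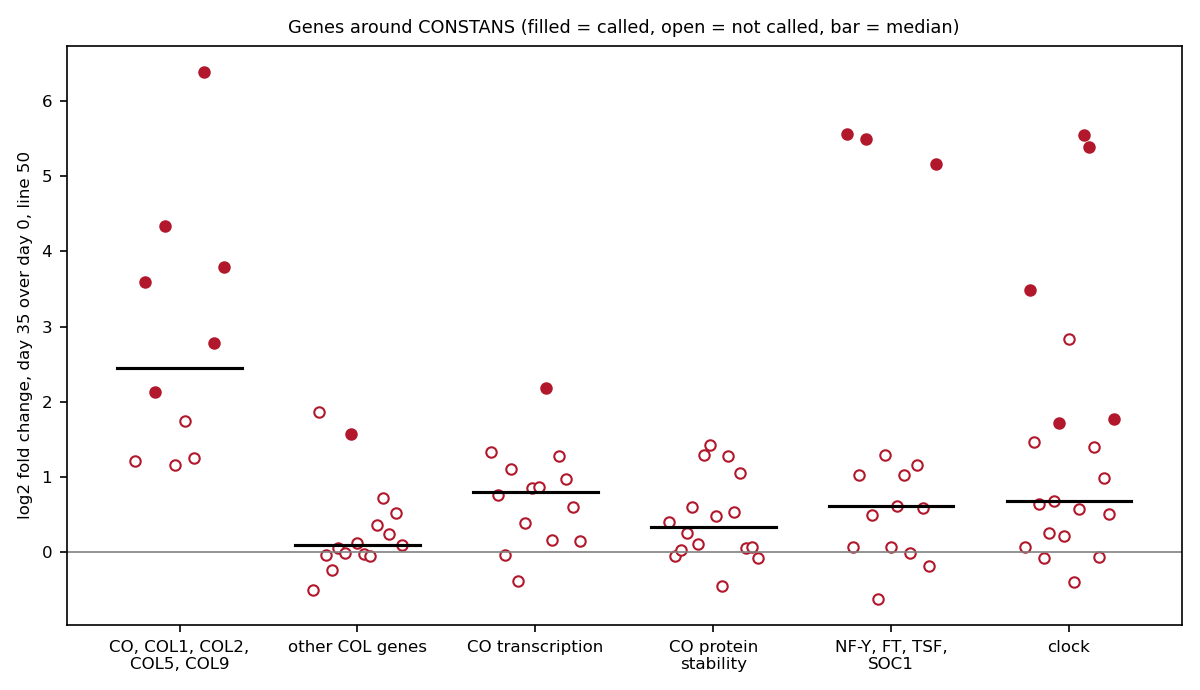
Log2 fold change of day 35 over day 0 in line 50 for the 10 genes and for 5 lists of related genes; each point is a gene, filled if called by edgeR, and bars are medians. The medians run from 0.10 for the other COL genes to 2.46 for the 10 genes, and the 3 filled points among the partners and targets are the SOC1 copies.

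Cell type markers were read in the same libraries. The summed level of 9 phloem companion cell genes (SUC2, AHA3 and APL, the cells in which CO acts in Arabidopsis) was 9273 to 9781 in line 50 at day 35, against 12753 to 13274 at day 0, and 9354, against 17692, in line 4004. None of the 7 tested was called between days by edgeR or DESeq2. An unadjusted p under 0.05 was reached by 3, beside 6382 of all 31191 genes. Summed leaf markers (10 genes) were 721096 to 2199076 at day 35, against 979548 to 2031495 at day 0, with replicate 3 highest on both days. Of the root markers, SCR Bra007056 was read in every library, at 343 to 574 in line 50 at day 35, against 289 to 417 at day 0, and at 247, against 148, in line 4004. The 3 copies of the other root gene, CASP1, were at or near the lowest value, 1, in all 8 libraries. The meristem genes STM and KNAT1 were at 52 to 66 and 67 to 115 in line 50 at day 35, against 1 to 2 at day 0 for both, and at 24 and 26 in line 4004 at day 35, against 1 at day 0 for both. WUS was at or near the lowest value in all libraries, and CLV1 had 478 to 1416 at day 35, against 712 to 888 at day 0 in line 50. The part of these marker differences in the CO and COL levels was not tested.

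Across the 8 libraries the copies of a locus varied together. Pearson's r of log2 CPM (counts scaled by library total and edgeR's TMM factor) was 0.986 to 0.991 among the COL9 copies, 0.991 for COL5, 0.974 for COL1 and 0.861 for COL2. CO followed COL2 Bra001043 (0.864) more than any COL9 copy (0.530 to 0.602). Among 23496 genes outside the set, the 3 most similar to each COL9 copy included a copy of STH2, another B-box gene, which was Bra003748 for Bra001264 (r = 0.989) and Bra029666 (0.982), and Bra015835 for Bra040020 (0.990). STH2 was not the most similar gene for any of them. That was the aldolase family gene Bra000534 for Bra001264 (0.991), the hydrolase family gene Bra035731 for Bra029666 (0.984) and the ERD family gene Bra038083 for Bra040020 (0.994). The gene most similar to COL1 Bra008668 was HB-7 Bra004516 (0.991), a homeobox gene, and that most similar to COL2 Bra021464 was ERS2 Bra015303 (0.981), an ethylene receptor. These values describe 8 libraries that share line, day and the replicate 3 difference, and many genes changed with the day.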

How the data were processed

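The authors trimmed paired-end reads with SolexaQA, mapped them with Bowtie2 to the Brassica rapa gene set of BRAD, and deposited raw read counts per gene. Which program counted them is not stated in the sources used here. The lowest deposited count was 1 in every library, read here as no reads. The deposited normalized values are a score, the count divided by 1 DESeq factor per library (set over these 8 libraries and 4 others) and rounded by the authors. They describe levels, and tests used the counts. Deposited fold changes between group means were not used.

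Counts were fitted with edgeR 4.0.16 in R 4.3.3 (TMM, filterByExpr, quasi-likelihood F test, 8 libraries, 31191 genes, Benjamini-Hochberg adjustment over all of them, SE from the F statistic). DESeq2 1.42.0, other scaling, no filter, counts less 1, a replicate block and left-out libraries were the alternatives. The scripts were tested on simulated data. Same-numbered line 50 libraries deviated together (r = 0.446, 0.615 and 0.695 for replicates 1, 2 and 3). The study states no covariate, so the main fit had none and the replicate block was run as an alternative. This grouping by number comes from the data and not from the labels. It separates replicate 3 but not replicates 1 and 2, since day 35 replicate 1 with day 0 replicate 2 gave 0.563 and day 35 replicate 2 with day 0 replicate 1 gave 0.473. Line 4004 ratios carry Poisson counting intervals.

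The genes and lists were chosen with earlier results of these data known. All genes of the 5 loci are named. In other lists, up to 3 called genes with the largest changes are named. For likeness, the 3 genes with the highest r were found among those averaging at least 50 normalized read counts, and only some of them are named. Arabidopsis loci and domains come from the annotation deposited with the counts. No genome annotation matching these gene identifiers was used, and positions are left out.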

Additional observations from a re-analysis of the deposited data

Results flagged for a closer look

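For both COL2 genes the ratio of day 35 to day 0 lay on opposite sides of 1 in the lines, although neither gene was called in line 50. In line 4004 the single pair was at 0.892 times the day 0 level in Bra001043 and 0.841 times in Bra021464, with counting intervals that include 1. In line 50 all 3 same-numbered pairs were higher at day 35, by 1.80, 2.52 and 2.50 times in Bra001043 and by 2.26, 3.01 and 2.05 times in Bra021464. The difference of the log2 responses, line 4004 minus line 50, was -1.41 ± 0.95 for Bra001043 and -1.51 ± 0.54 for Bra021464, and edgeR called neither (adjusted p = 0.9999 for both). Without replicate 3 of line 50, Bra021464 was called (-1.63, adjusted p = 0.0376) and Bra001043 was not (adjusted p = 0.103).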

How the results depend on the processing

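Of 644 values recomputed for the 10 genes, 563 counted as unchanged. A further 30 gained a call, 30 lost one and 19 changed sign, and 2 ratios without a test moved beyond their counting interval. Those 2 were the line 4004 ratios of day 35 to day 0 of COL5, at 3.75 in Bra002709 and 3.31 in Bra020425 when scaled by library totals. For fold changes from a fit, unchanged meant the same direction and side of the threshold. For line 4004 ratios it meant inside the counting interval, and for copy ratios a shift under the larger SD of the 2 days. A copy ratio could thus change sign, or the CO ratio cross 2-fold, and still count as unchanged. In line 50, the count called at day 35 against day 0 was 10 with the replicate block, in place of 6, and 0 to 10 with replicates or libraries left out. The line contrast at day 0 called 2 with the replicate block and 2 with DESeq2, in place of 0, and 0 to 5 with replicates left out. Left-out replicates gave 0 to 3 at day 35 and 0 to 5 for the difference of the responses. The replicate block turned the sign of CO between the lines, to -0.46 at day 0 and -0.68 at day 35, and of COL9 Bra040020 at day 35, to 0.081, and it changed the direction of no other result for these genes. With replicates left out, CO ran from -0.082 to 0.79 at day 0, from -0.14 to 0.46 at day 35 and from -0.73 to 0.21 for the difference of the responses, and that difference ran from -0.35 to 0.31 in COL5 Bra002709 and from -0.14 to 0.48 in COL5 Bra020425. None of these was called. The block fit gives both line 4004 libraries the replicate 3 offset of line 50, where CO was the highest library on both days and COL9 Bra040020 the lowest. The cause of the sign changes with replicates left out was not tested. With 1 line 4004 library per day and the spread between line 50 replicates, small differences between the lines could go undetected. For COL1 Bra023541 the 9 reads at day 0 in line 50 were a further limit.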
